A study of Mus musculus with 141 samples.

Results

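The genes of the cytosolic ribosomal proteins were measured in single mouse bone marrow progenitors. They were chosen by symbol: protein-coding genes named Rpl or Rps with a number and at most a closing a, x or y, together with Rplp0, Rplp1, Rplp2 and Rpsa. The pseudogenes and the Rps6k kinases were left out. The rule found 76 genes among 46078 mouse gene rows, 43 of the large subunit, 30 of the small subunit and 3 of the stalk. The cells were 94 basophil/mast cell progenitors (BMCP) and 47 granulocyte/monocyte progenitors (GMP) from the bone marrow of 3 female C57BL/6 mice, with no treatment or genetic change named and no age given. BMCP are sorted as the source of basophils and mast cells, and their gate took live, lineage-negative, cKit-positive, Sca1-negative cells with high integrin beta7 and high CD16/32. GMP, the source of neutrophils and monocytes, were gated as live, lineage-negative, cKit-positive, Sca1-negative, CD34-positive cells high for CD16/32 that fell outside the BMCP gate. No label ties a cell to a mouse, so each population counts as 1 sample without replicates, and no test of the difference between them was possible.

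A ribosome is built from a large and a small subunit, each made of ribosomal RNA and many different proteins, a single copy of nearly every protein per ribosome. Cells that grow or divide fast make many ribosomes, and the ribosomal protein genes are among the most strongly transcribed genes of such cells. Their mRNAs begin with a tract of pyrimidines, the 5′ terminal oligopyrimidine or TOP motif, through which the mTOR kinase and the RNA-binding protein Larp1 control their translation and stability. Several members are known from blood disease: loss of 1 copy of genes such as RPS19, RPS26, RPL5 or RPL11 causes Diamond-Blackfan anaemia in humans.

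After filtering, 89 BMCP and 41 GMP remained, with a median of 893037 and 1309887 nuclear-encoded counts per cell. Single BMCP held a median of 5440 genes with a count, and single GMP 7001. Spike-in RNA, added in equal amount to each reaction, took a median of 11.3% of gene and spike-in counts in BMCP and 5.92% in GMP. Mitochondrial genes took 4.48% and 6.78% of gene counts. The markers fitted the gates in the main. Levels are given in CPM, counts scaled to a total of 1e6 nuclear-encoded counts. The 9 mast cell and basophil markers summed to 19781 CPM in BMCP and 2280 CPM in GMP. Of these 9 markers, 8 were at least 2-fold higher in BMCP and 1 at least 2-fold lower, against 25.8% and 21% of all genes tested. The 9 GMP markers summed to 619 and 50362 CPM, with 8 at least 2-fold lower in BMCP and 0 higher. Not all GMP lacked the first list: its sum ran from 36.99 to 10906 CPM over the 41 GMP, and 18 of them held at least 100 CPM of Gata2, a transcription factor of mast cells and basophils. T cell markers summed to 0.107 and 3.35 CPM, B cell markers to 60.4 and 104 CPM with Ms4a1 at no read in either population, erythroid markers to 328 and 21.1 CPM, and late neutrophil markers to 3.93 and 20.5 CPM. The BMCP fell into numbers 1 to 47 and 48 to 94, and all GMP into a block of their own in the deposited table, so that an effect of the block and one of the population cannot be told apart.

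The ribosomal protein genes took a smaller share of the nuclear-encoded counts of BMCP than of GMP. Summed over cells, the 76 genes held 1.32% of nuclear-encoded counts in BMCP (1.316 to 1.321, exact Clopper-Pearson limits at 95%) and 2.21% in GMP (2.210 to 2.218). Reads here are PCR copies without molecular identifiers, so these limits and the later exact Poisson limits cover counting error only. Over single cells the share ran from 0.448% (BMCP cell 41) through a median of 1.25% to 4.18% (BMCP cell 5), with the next highest cell at 2.32%. In GMP it ran from 1.61% (GMP cell 16) through a median of 2.15% to 3.37% (GMP cell 6). The populations overlapped in their edges: 73 of 89 BMCP lay below the lowest GMP, 4 BMCP lay above the GMP median, and 0 GMP lay below the BMCP median. BMCP cell 5 also had the highest spike-in share among BMCP, 26.8%. The pooled BMCP share was 1.30% without it.

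**Figure D1:**
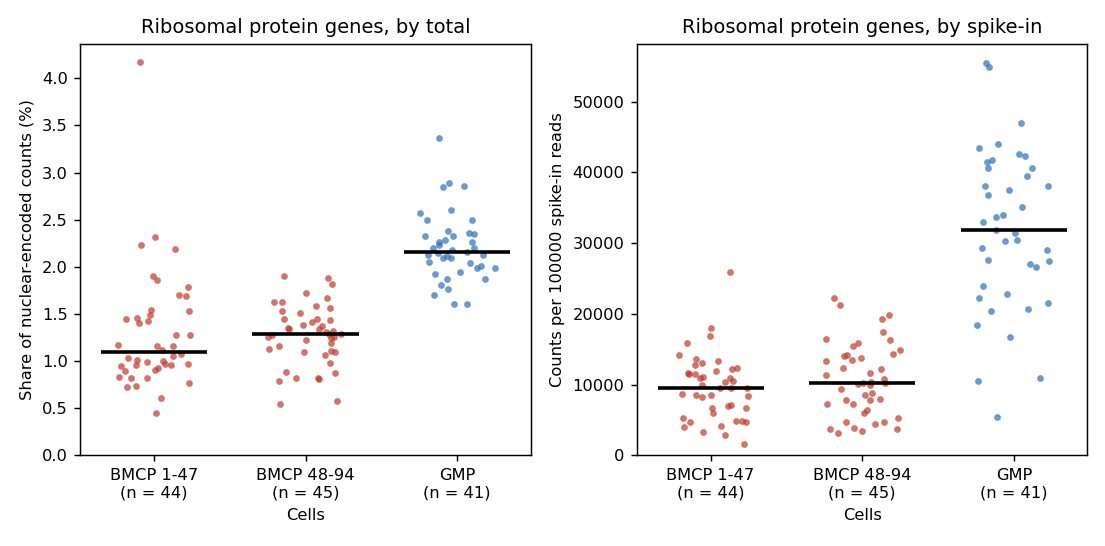
Each point is a kept cell, with BMCP numbers 1 to 47 and 48 to 94 in red, GMP in blue and the median as a black bar. The left panel shows the ribosomal protein genes' share of nuclear-encoded counts (%), where 73 of 89 BMCP lie below every GMP, and the right panel their counts per 100000 spike-in reads, where 30 of 41 GMP lie above every BMCP.

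Against the spike-ins the gap was wider. The 76 genes together had 9864 counts per 100000 spike-in reads in BMCP and 30294 in GMP. Single BMCP ran from 1572 (cell 41) through a median of 10117 to 25932 (cell 44), and single GMP from 5385 (cell 8) through 31854 to 55454 (cell 9). On this scale 30 of 41 GMP lay above every BMCP, and 19 of 89 BMCP lay below every GMP. All nuclear-encoded genes together had 7.48 counts per spike-in read in BMCP and 13.7 in GMP, so the spike-in scale holds the difference in all nuclear-encoded counts as well as that in the ribosomal share. Less RNA in a cell and poorer capture of it cannot be told apart on this scale. GMP cell 8, the lowest, had a spike-in share of 30.2%, the highest of all GMP.

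The low share of BMCP was seen in both BMCP blocks, and with and without cells rich in a proliferation gene. It was 1.30% in the 44 cells of numbers 1 to 47 and 1.33% in the 45 cells of numbers 48 to 94, although unaligned reads took 37.5% and 25.1% of reads there. GMP had higher levels of S phase genes, with 10 of 12 at least 2-fold lower in BMCP (median log2 ratio -1.81; 21% of all genes tested were that much lower), and of G2 and M phase genes, with 8 of 12 lower and 2 higher (median -1.59). The 2 higher genes, Cenpf and Ube2c, were level without BMCP cell 29, at 0.01 and 0.03. Among cells below 50 CPM of Mki67, a gene of dividing cells, the ribosomal share was 1.32% in 85 BMCP and 2.18% in 23 GMP. Among cells at or above 50 CPM it was 1.24% in 4 BMCP and 2.26% in 18 GMP. BMCP lay below GMP in either class, but the classes did not level the other genes of dividing cells. Under 50 CPM of Mki67, the median GMP cell still held 3248 CPM of summed S phase genes, against 744 CPM for the median BMCP cell. For the summed G2 and M phase genes these medians were 264 CPM for GMP against 2.44 CPM for BMCP. The part of cell division in the lower share was not tested. GMP under 100 CPM of Gata2 (23 cells) had a share of 2.28%, and the 18 GMP at or above it 2.13%, both above BMCP.

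As a description over cells that share their library preparation, Spearman's rho of the ribosomal share in 89 BMCP was 0.26 with total counts, 0.35 with genes detected, -0.10 with the spike-in share and -0.04 with the mitochondrial share. It was 0.06 with the summed S phase genes and -0.12 with the G2 and M phase genes. In 41 GMP the same values were 0.08, 0.06, 0.32, 0.17, 0.04 and -0.13. Reads that fitted more than 1 gene took 3.77% of reads in BMCP and 6.03% in GMP, and reads outside genes 17.6% and 11.1%. These moved with the population, and their part in the difference was not tested.

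Gene by gene, nearly all members were lower in BMCP. The measure is the log2 of CPM plus 1 in BMCP over that in GMP, from counts summed over cells. All 76 genes passed the filter of 1 CPM in either population, so none was lost to it. By CPM 72 members were lower and 4 higher, with a median log2 ratio of -0.91, whereas the median over all 14554 genes tested was 0.04. Order statistics of the members gave limits of -1.03 to -0.75 for the members' median. These limits take the members as separate draws, although all come from the same cells, and cover no spread between cells or mice. At least 2-fold lower were 32 of 76 members, against 21% of all genes tested, and at least 2-fold higher was 1 member, against 25.8%. At 1.5-fold the counts were 57 lower, against 31.7%, and 1 higher, against 34.8%. Per spike-in read 75 members were lower, with a median of -1.76 where all genes tested had -0.76. On that scale 72 members were at least 2-fold lower, against 42.5%, and 0 at least 2-fold higher, against 15.3%. At 1.5-fold they were 73, against 55.5%, and 0, against 20.7%.

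The direction held for most members however cells were weighted. By the mean of the cells' CPM 73 members were lower in BMCP, by the median of the cells all 76, with numbers 1 to 47 alone 73 and with numbers 48 to 94 alone 72. The 72 members lower by summed CPM were lower in all of these. The median of the cells says little for members read in few cells, as it then lies at or near 0. By the detection rule given below, 27 members were detected in fewer than 50% of BMCP and 8 in fewer than 50% of GMP. GMP cell 6, with the highest ribosomal share among GMP, moved the count at the 2-fold line: without it 26 members were at least 2-fold lower and the median was -0.84. The line itself, a log2 ratio of -1, ran through a crowd. Rps10 and Rpl3 lay just inside, at -1.0045 and -1.0004, and Rpl4 just outside, at -0.98.

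**Figure D2:**
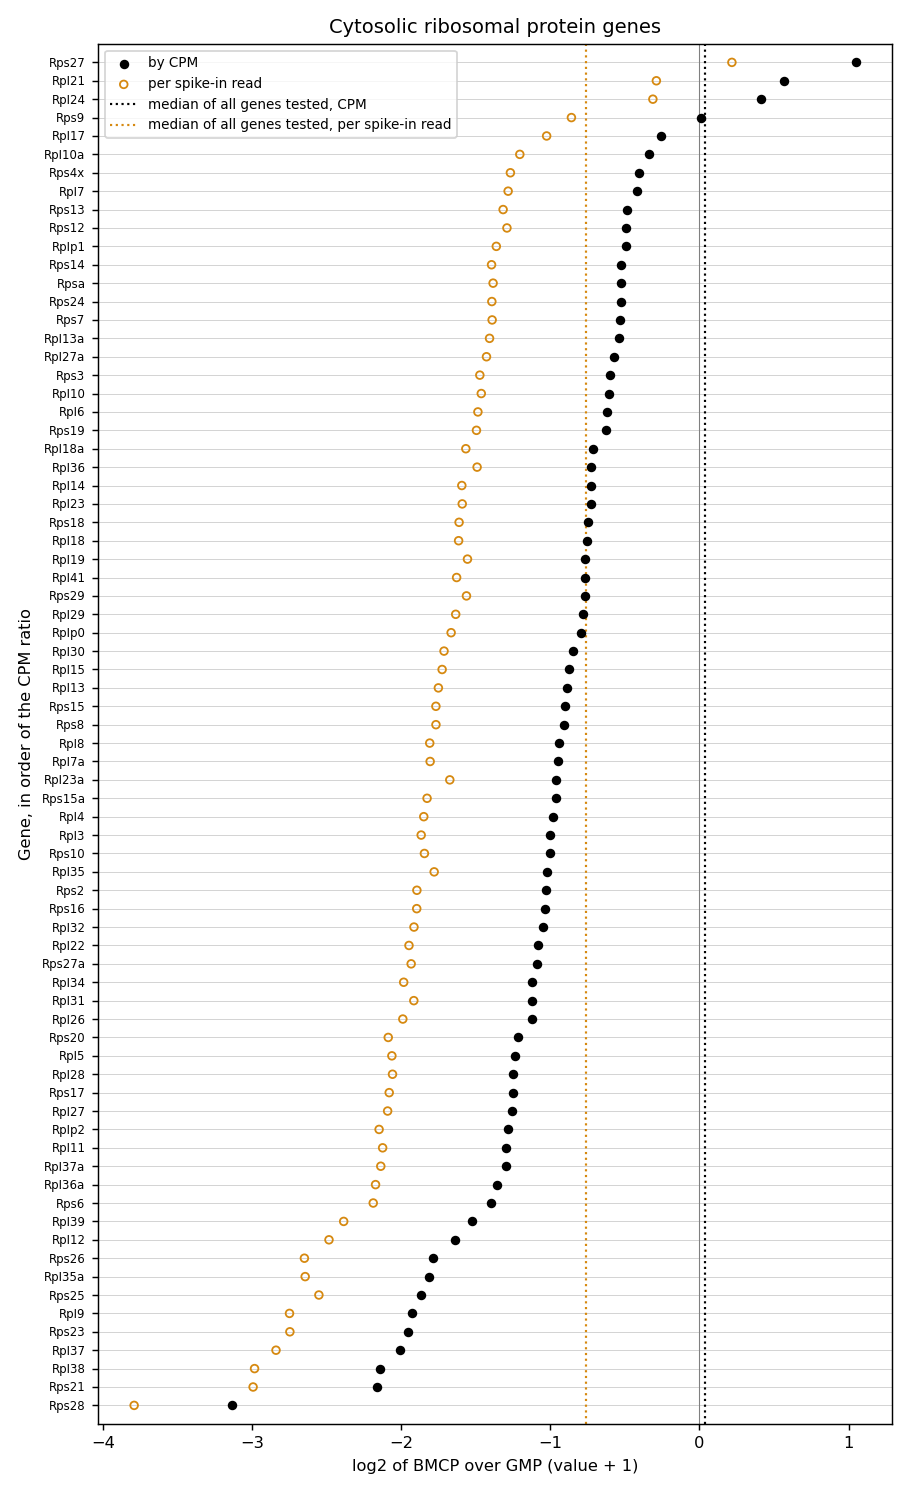
Log2 of BMCP over GMP (value plus 1) for 74 of the 76 genes, ordered by the CPM ratio, with black points for CPM and open points for counts per 100000 spike-in reads; dotted lines mark the medians of all genes tested at 0.04 and -0.76. All but 4 black points lie below 0 and all but Rps27 of the open points do.

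Large, small and stalk genes differed little as groups. The median log2 CPM ratio was -0.95 over the 43 large subunit genes, -0.84 over the 30 small subunit genes and -0.80 over the 3 stalk genes. At least 2-fold lower were 19, 12 and 1 of them. The balance between subunits was not the same, however. Large subunit genes gave 42.99% of the members' counts in BMCP and 47.8% in GMP, and small subunit genes 47.4% and 42.4%. In single cells the counts of large subunit genes per count of small subunit genes ran from 0.534 through a median of 0.909 to 2.35 in BMCP, and from 0.708 through 1.10 to 1.68 in GMP, with wide overlap.

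A few genes carried most of the ribosomal protein reads, and mostly the same ones in both populations. The 5 genes with most counts held 51.03% of the members' counts in BMCP and 51.1% in GMP. Per kilobase of mRNA, Rpl8, Rpl4, Rps9 and Rps14 were among the highest in BMCP, and Rpl8, Rpl4, Rps3 and Rpl32 in GMP. Across the 76 genes Spearman's rho between the 2 populations' CPM per kilobase was 0.94.

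Rpl4 (ENSMUSG00000032399), which lines the tunnel through which the new protein leaves the large subunit, had most counts. It was read in all cells, from 69.8 through a median of 1548 to 4924 CPM in BMCP and from 1124 through 3249 to 5079 CPM in GMP. Summed over BMCP it stood at 1667 CPM (1658 to 1675, exact Poisson limits), and over GMP at 3285 CPM (3270 to 3300), a log2 ratio of -0.98. Of 89 BMCP 85 lay below the GMP median and 25 below the lowest GMP. Rpl8, a large subunit protein at the peptidyl transferase centre, ran from 8.67 through 896.5 to 3614 CPM in BMCP and from 1088 through 1799 to 3052 CPM in GMP. Its summed levels were 986 and 1892 CPM, with a log2 ratio of -0.94, and 60 of 89 BMCP lay below the lowest GMP. Rpl32 was at 314 and 649 CPM with a log2 ratio of -1.05, which was -0.98 without GMP cell 6, so that its place past the 2-fold line rested on that cell.

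Small subunit genes with high levels ranged widely in ratio. Rps20, chosen after its values were seen like Rps2, was at 229 and 535 CPM (-1.22), and Rps2 at 127 and 260.2 CPM (-1.03). Rps3, at the entry of the mRNA channel, was at 1592 and 2418 CPM (-0.60), and Rps14 at 500.1 and 720.0 CPM (-0.53). Among genes of either subunit, ratios nearer 0 were those of Rpl7 (206 and 275 CPM, -0.42), the X-linked Rps4x (126 and 167 CPM, -0.40) and Rpl10a (132 and 167 CPM, -0.34). Rps9, which sits in the body of the small subunit, was level by CPM. It ran from 181 through 602 to 1824 CPM in BMCP and from 341 through 616 to 1096 CPM in GMP, and its summed levels were 670.2 (664.7 to 675.7) and 665 (658 to 672) CPM, a log2 ratio of 0.01. Of 89 BMCP 47 lay below the GMP median of Rps9. Per spike-in read its log2 ratio was -0.86, close to the -0.76 of all genes tested.

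At the other end stood the 10 members with the lowest log2 ratios, from -1.64 (Rpl12) to -2.16 (Rps21), with Rps28 at -3.14. As plain quotients of CPM, without the pseudocount, they were 3.22-fold (Rpl12) to 4.95-fold (Rps25) lower in BMCP, with Rps28 at 14.8-fold. All but Rps26 lay below the members' median level in both populations. Their annotated starts on GRCm38.p6 (RefSeq) are shown 5′ to 3′ on the gene's strand, 15 bases before and 15 from the start. This is where the TOP tract would lie. Capitals mark a run of at least 5 pyrimidines that opens with C and begins within 5 bases of the start. Of these 10 windows 5 hold such a run, near the 46.4% of the 56 members with an annotated promoter. Among all promoters 18.5% do.
Rps21, chr2:180257364-180257393, plus strand: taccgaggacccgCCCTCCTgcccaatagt
Rpl38, chr11:114668565-114668594, plus strand: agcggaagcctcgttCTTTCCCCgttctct
Rpl37, chr15:5116598-5116627, plus strand: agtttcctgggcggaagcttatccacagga
Rps23, chr13:90923107-90923136, plus strand: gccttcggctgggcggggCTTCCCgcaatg
Rps26, chr10:128626492-128626521, minus strand: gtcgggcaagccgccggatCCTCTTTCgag
Rpl12, chr2:32961697-32961726, plus strand: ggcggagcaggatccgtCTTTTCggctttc
Rpl9, chr5:65391417-65391446, minus strand: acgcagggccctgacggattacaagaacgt
Rps25, chr9:44407699-44407728, plus strand: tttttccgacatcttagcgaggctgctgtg
Rpl35a, chr16:33056438-33056467, plus strand: gcggggcgtgcgtcccacaaggccgcgcgg
Rps28, chr17:33824548-33824577, minus strand: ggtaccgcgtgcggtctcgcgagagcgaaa
The window of Rpl24, which lies between Rps27 and Rps9 in the order of ratios, holds no such run and is not shown. For comparison, 2 genes from the top of the order of levels and 2 from the top of the order of ratios read as follows.
Rpl4, chr9:64173372-64173401, plus strand: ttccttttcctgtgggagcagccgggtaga
Rps3, chr7:99483695-99483724, minus strand: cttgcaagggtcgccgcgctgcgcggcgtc
Rps9, chr7:3704026-3704055, plus strand: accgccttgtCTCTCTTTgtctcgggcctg
Rps27, chr3:90213634-90213663, minus strand: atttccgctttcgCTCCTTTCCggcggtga

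Rps21 (ENSMUSG00000039001), a small subunit protein, ran from 0 through 11.4 to 110 CPM in BMCP and from 18.2 through 65.1 to 215 CPM in GMP. Summed over BMCP it reached 14.04 CPM (13.3 to 14.9), and over GMP 66.2 CPM (64.1 to 68.4), a log2 ratio of -2.16. Of 89 BMCP 61 lay below the lowest GMP, and 5 GMP lay above the highest BMCP. Rpl38 (ENSMUSG00000057322), a large subunit protein whose loss in mice alters the body plan, ran from 0 through 17.4 to 70.5 CPM in BMCP and from 27.6 through 74.5 to 191 CPM in GMP. It was at 17.2 CPM (16.3 to 18.1) and 79.2 CPM (76.9 to 81.6), a log2 ratio of -2.14. Of 89 BMCP 73 lay below the lowest GMP, and 21 of 41 GMP lay above the highest BMCP, so that Rpl38 overlapped little. With each cell thinned to 200000 reads and 2 reads taken as detection, Rpl38 was found in 66 of 86 BMCP and 40 of 40 GMP.

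Rpl37, a zinc-binding large subunit protein, was at 13.2 and 56.1 CPM (-2.01), Rps23 of the decoding centre at 6.58 and 28.3 CPM (-1.95), and Rpl12, which lies beside the stalk base, at 20.5 and 66.1 CPM (-1.64). Rps26, a protein of the mRNA exit channel, was the best read gene of this set. It ran from 3.64 through 49.7 to 236 CPM in BMCP and from 76.8 through 193 to 439 CPM in GMP, with summed levels of 58.3 (56.7 to 59.96) and 204 (200.2 to 208) CPM and a log2 ratio of -1.79. Of 89 BMCP 67 lay below the lowest GMP in Rps26, and 12 GMP lay above the highest BMCP. Rpl35a was at 12.9 and 47.9 CPM with a log2 ratio of -1.82, which moved between -2.25 without BMCP cell 17 and -1.55 without GMP cell 10.

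Some of these ratios rested on single cells. Rps28 (ENSMUSG00000067288) had the lowest ratio of all members, -3.14, with 1.31 CPM (1.07 to 1.57) over BMCP against 19.3 CPM (18.1 to 20.5) over GMP. Its single-cell median was 0 in BMCP and 2.31 CPM in GMP, and GMP cell 6 held 46.4% of the GMP reads. Without that cell GMP stood at 10.9 CPM and the log2 ratio was -2.36. Rpl9 was at 10.3 and 41.9 CPM (-1.93), with 57.5% of its BMCP reads in BMCP cell 50. Without this cell BMCP stood at 4.47 CPM and the log2 ratio was -2.97. Rps25, needed for initiation at some internal ribosome entry sites, was at 2.04 and 10.1 CPM (-1.87). Rpl36a, chosen after its values were seen, was at 10.2 and 27.8 CPM (-1.36), and its BMCP level was 5.10 CPM without BMCP cell 75, which held 50.8% of the reads.

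**Figure D3:**
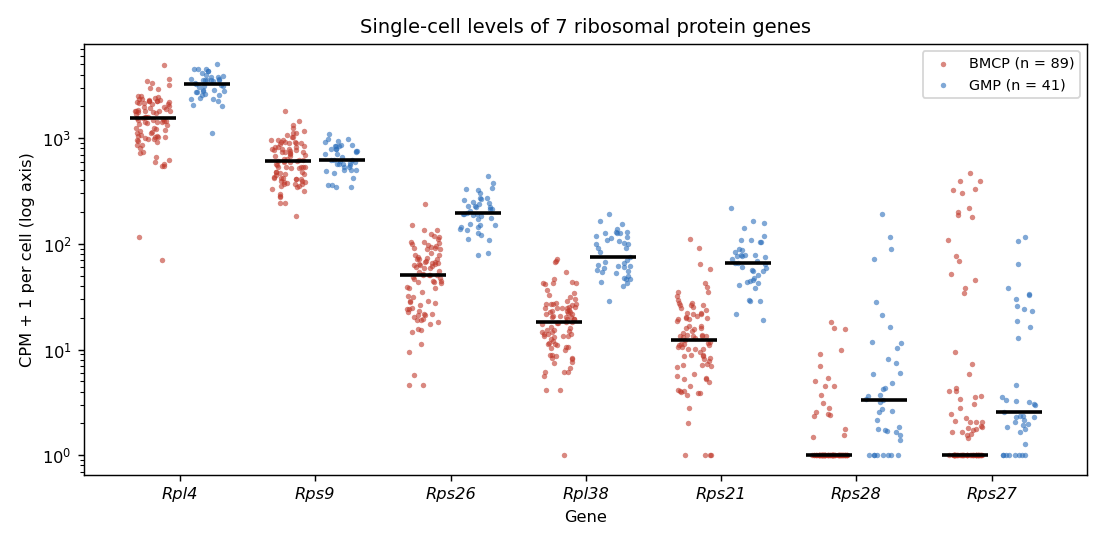
Single-cell CPM plus 1 on a log y axis for 7 ribosomal protein genes (x axis); red points are the 89 BMCP, blue points the 41 GMP, and black bars the medians. Rpl38 and Rps26 part the populations most clearly, Rps9 is level, and Rps27 is at a median of 0 CPM in BMCP with a scatter of cells up to 463 CPM.

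The 4 members higher in BMCP by summed CPM were Rps27, Rpl21, Rpl24 and, by a log2 ratio of 0.01, Rps9, and all 4 were lower by the median of the cells. For Rps27 and Rpl24 that median was 0 CPM in BMCP and only 1.54 and 0.44 CPM in GMP. Their ratios by the median thus lie near the floor and depend on the pseudocount. Rps27 (ENSMUSG00000090733), a zinc-binding small subunit protein, was the 1 member at least 2-fold higher, with 35.2 CPM (33.96 to 36.5) over BMCP against 16.5 CPM (15.4 to 17.6) over GMP, a log2 ratio of 1.05. Its single-cell values ran from 0 through a median of 0 to 463 CPM in BMCP and from 0 through 1.54 to 115 CPM in GMP. Of thinned cells, 18 of 86 BMCP and 14 of 40 GMP reached detection. By the median of the cells its log2 ratio was -1.35. By the mean of the cells it was 1.44, in BMCP numbers 1 to 47 and 48 to 94 alone 0.53 and 1.30, and per spike-in read 0.22, all towards BMCP. BMCP cell 57 gave 26.8% of its BMCP reads, and without that cell the log2 ratio was 0.65. Leaving out any of 11 single cells brought it under 2-fold, and without GMP cell 30 it was 1.46.

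Rpl21, a large subunit protein, was at 60.1 and 40.3 CPM, a log2 ratio of 0.56 by sums and -0.73 by the median of the cells, with medians of 4.79 and 8.63 CPM. By the mean of the cells it was 0.58, and in the 2 BMCP blocks 0.46 and 0.62. Rpl24, a large subunit protein that bridges to the small subunit, was at 5.84 and 4.14 CPM (0.41). BMCP cell 65 held 78% of its BMCP reads, and without that cell BMCP stood at 1.31 CPM and the log2 ratio was -1.15. In GMP it was at 2.66 CPM without GMP cell 15. Detection of Rpl24 stood at 5 of 86 BMCP and 5 of 40 GMP. Per spike-in read Rpl21 and Rpl24 were lower in BMCP, with log2 ratios of -0.29 and -0.31.

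The 3 stalk genes, chosen after their values were seen, were all lower in BMCP. Rplp0, the base of the stalk, ran from 194 through 797 to 2863 CPM in BMCP and from 844 through 1526 to 2491 CPM in GMP, with summed levels of 888 and 1542 CPM and a log2 ratio of -0.80. In Rplp0, 49 of 89 BMCP lay below the lowest GMP. Its partners Rplp1 and Rplp2, which recruit the elongation factors to the ribosome, were at 288 and 406 CPM (-0.49) and at 90.2 and 221 CPM (-1.28). The members tied to Diamond-Blackfan anaemia, also chosen after their values were seen, had log2 ratios of -0.63 (Rps19), -1.79 (Rps26), -1.24 (Rpl5) and -1.29 (Rpl11). Rpl5 and Rpl11, which carry the 5S ribosomal RNA and bind Mdm2 when ribosome assembly fails, were at 13.6 and 33.4 CPM and at 14.98 and 38.2 CPM. Rps6, the substrate of S6 kinase, was at 6.74 and 19.4 CPM (-1.40) and reached detection in 21 of 86 BMCP and 26 of 40 GMP.

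Many members were read in few cells. Summed levels ran from 1.31 through a median of 57.2 to 1667 CPM in BMCP and from 4.14 through 94.9 to 3285 CPM in GMP. In thinned cells 40 members were detected in at least 90% of BMCP and 48 in at least 90% of GMP, while 27 members were detected in fewer than 50% of BMCP and 8 in fewer than 50% of GMP. Per kilobase the lowest were Rps25, Rps28, Rpl35, Rpl23a and Rpl5 in BMCP and Rpl24, Rpl17, Rpl35, Rpl23a and Rpl5 in GMP. The order depends on the annotated length of the principal mRNA, which was 2045 bases for Rpl5. Rpl35 was at 4.72 and 10.6 CPM, with a log2 ratio of -1.02 that was -0.94 without GMP cell 47. Rpl23a was at 3.32 and 7.40 CPM (-0.96), and Rpl17 at 6.59 and 8.09 CPM (-0.26), and without BMCP cell 75 the BMCP level was 4.95 CPM.

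Ribosomal protein genes have many processed pseudogenes, and a read of 50 bases that also matches a copy cannot be placed uniquely. For each member the share of 50-base stretches of its principal mRNA found in no other annotated transcript was counted. It was 97.0% for Rps3, 93.7% for Rpl8 and 83.5% for Rpl4, and 1.35% for Rps27, 4.91% for Rpl35, 6.16% for Rpl5 and 11.9% for Rpl10a. Level and share did not always go together: Rps28 and Rpl17, among the lowest per kilobase in BMCP and in GMP respectively, had 65.7% and 55.3% unique, while Rps27 and Rpl10a stood at 102 and 181 CPM per kilobase in BMCP. Across the 76 genes Spearman's rho of this share with log10 CPM per kilobase was 0.41 in BMCP and 0.49 in GMP. With the log2 ratio between populations it was -0.05. The median log2 ratio was -0.90 over the 41 members with at least 50% of stretches unique and -0.91 over the other 35. The part of read placement in the order of the members' levels was not tested.

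**Figure D4:**
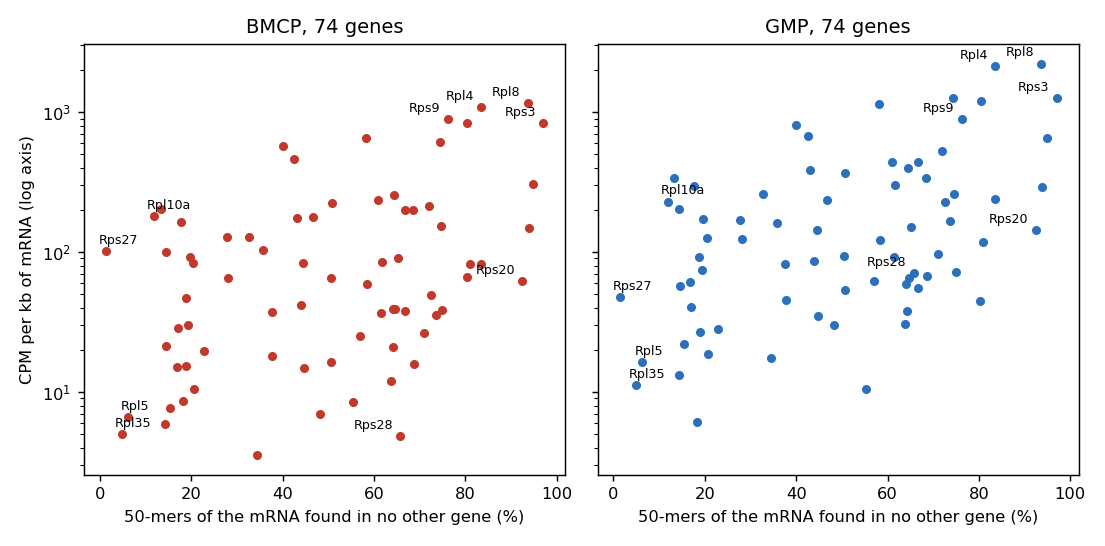
CPM per kilobase of mRNA (log y axis) against the share of the mRNA's 50-base stretches found in no other gene (x axis, %), for 74 ribosomal protein genes in BMCP (left) and GMP (right). Rpl8, Rpl4 and Rps3 stand at the upper right, and Rpl35 and Rpl5 at the lower left.

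The pseudogene rows held a large part of the family's reads. The 268 rows with an Rpl or Rps pseudogene symbol summed to 1928 CPM in BMCP and 3259 CPM in GMP, which equals 14.6% and 14.7% of the members' reads. All 811 pseudogene rows that share a 50-base stretch with a member summed to 4954 and 8703 CPM, or 37.6% and 39.3%. Rpl14-ps1 was at 442 and 665 CPM, above Rpl14 itself at 225 and 373 CPM. Rpl3-ps1 at 231 and 374 CPM likewise lay above Rpl3 at 136 and 272 CPM. These pairs were chosen after their values were seen, and the reads of a gene and its copy cannot be told apart with certainty. With these rows added to their members, the median log2 CPM ratio was -0.86, 29 members were at least 2-fold lower and 0 at least 2-fold higher, Rps27 standing at 0.99.

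Members with short mRNAs had the lowest median ratio. In each length class the count at least 2-fold lower stands against 21% of all genes tested. Of 17 members with a principal mRNA under 500 bases, 11 were at least 2-fold lower in BMCP (median -1.12). Of 29 members from 500 to 800 bases 10 were, with a median of -0.85, and of 30 longer ones 11 were, with a median of -0.89. Spearman's rho of mRNA length and log2 ratio across members was 0.22. Length moved with the ratio over all genes too: the median log2 ratio was -0.50 in 267 protein-coding genes with under 1000 bases of exons, -0.17 in 2948 genes of 1000 to 3000 bases and 0.16 in 8288 longer genes. Those classes count the joined exons of all transcripts of a gene, so they do not line up with the members' mRNA classes. The part of length in the members' ratios was not tested.

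Several short sequences were more frequent among the members' promoters than among all promoters, each in only a part of the members. RefSeq promoters, from 250 bases before to 50 after the start, were found for 56 of the 76 members and set against 27025 promoters of all genes. Motifs were counted on both strands. CCGGAAG, the core bound by ETS factors such as GABPA, was in 39.3% of members and 9.12% of all promoters. The letters GGGCGG of the GC box were in 58.9% and 35.9%. TCTCGCGA, a palindrome found in many housekeeping promoters, was in 16.1% and 1.08%, and it lies in the Rps28 window above. ATGGCGGC, bound by YY1, was in 7.14% (4 of 56 members) and 2.38%. The TATA box letters TATAAA were in 8.93% and 14.2%, and CACGTG, the E-box bound by Myc, in 8.93% and 7.24%, each in 5 of 56 members. A pyrimidine run of at least 5 bases that opens with C within 5 bases of the annotated start, as in Rps21, Rpl38 and Rps26 above, was found in 46.4% of members and 18.5% of all promoters. The run was in 14 of 27 members at least 2-fold lower in BMCP and in 12 of 29 others. A match is only of letters, and annotated starts can miss the true start by several bases.

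Ribosomal protein genes outside the symbol rule were lower in BMCP too. Of 14 such genes 11 had at least 1 CPM, all 11 were lower in BMCP and 5 lay past the 2-fold line (45.5%, against 21% of all genes tested; median -0.89). Rack1, a scaffold protein on the small subunit, was at 1511 and 2001 CPM (-0.41), and Rps3a1 at 187 and 347 CPM (-0.89). Fau, which encodes a ribosomal protein fused to a ubiquitin-like protein, was at 16.1 and 30.1 CPM (-0.87). The paralogs Rps27l (73.6 and 251 CPM, -1.76), Rpl36al (55.3 and 158 CPM, -1.50) and Rpl22l1 (30.01 and 61.7 CPM, -1.02) lay past the 2-fold line. So did Rps4l (6.90 and 38.7 CPM, -2.33) and Rps27rt (8.72 and 21.6 CPM, -1.22). BMCP cell 49 held 44.9% of the BMCP reads of Rps4l, which was at 3.86 CPM without it, a log2 ratio of -3.03. Rpl7l1 and Rpl9-ps6 had log2 ratios of -0.48 and -0.41. The testis paralogs Rpl39l, Rpl10l and the muscle paralog Rpl3l were all but unread, with 0 and 0 reads, 1 and 6 reads, and 0 and 6 reads.

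Genes of ribosome biogenesis were mostly lower in BMCP. In this and the next lists, counts at least 2-fold lower stand against 21% of all genes tested and counts at least 2-fold higher against 25.8%. In ribosome biogenesis 26 of 44 genes were past the 2-fold line towards GMP and 1 towards BMCP (59.1% and 2.27%), with a median of -1.12. Dkc1, the pseudouridine synthase of small nucleolar particles, was at 77.6 and 361 CPM (-2.20), and Rrp1b, a nucleolar protein, at 21.6 and 147 CPM (-2.71). Without BMCP cell 68 its BMCP level was 14.3 CPM and the log2 ratio -3.27. Nop2, a ribosomal RNA methyltransferase, was at 128 and 123 CPM (0.07). Polr1e, a subunit of RNA polymerase I, was the gene at least 2-fold higher, at 225 and 58.5 CPM (1.93). In single cells Polr1e ran from 0 through 42.3 to 1153 CPM in BMCP and from 0 through 0 to 853 CPM in GMP.

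Genes of translation initiation and elongation had medians nearer 0, and their counts at least 2-fold lower were close to the share of all genes. Most were still lower in BMCP, 32 of 37 initiation factors and 8 of 10 elongation genes, against 7104 of 14554 genes tested. Of 37 initiation factors 7 were at least 2-fold lower (18.9%, against 21%) and 0 higher (median -0.57), among them the eIF3 subunits Eif3g at 131 and 383 CPM (-1.54) and Eif3b at 94.5 and 246 CPM (-1.37). Eif4g3, a scaffold of the cap-binding complex, was at 214 and 107 CPM (0.99), and Eif1, which guards start codon choice, at 93.7 and 60.1 CPM (0.63). The 10 elongation genes are not all elongation factors, and the 1 at least 2-fold higher is the kinase gene Eef2k. Of these 10 genes 2 were at least 2-fold lower (20%, against 21%) and 1 higher (10%, against 25.8%), with a median of -0.64. Eif5a was at 854 and 1801 CPM (-1.08) and Eef1e1 at 62.7 and 145 CPM (-1.20). Eef2k, the kinase that inhibits elongation factor 2, was at 375 and 145 CPM (1.36), and Tpt1, whose mRNA carries a TOP tract, at 83.3 and 55.2 CPM (0.59). By the median of the cells Tpt1 was level, at 52.04 and 51.5 CPM.

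**Figure D5:**
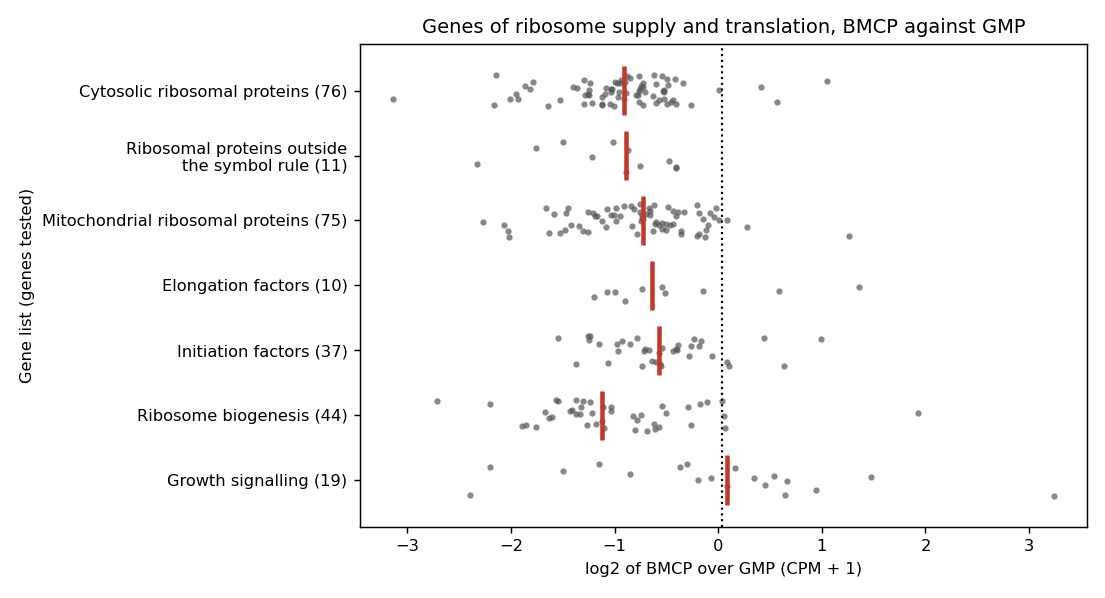
Log2 ratio of BMCP to GMP from CPM plus 1 (x axis) for the genes tested in 7 lists (y axis, number of genes in brackets), with list medians as red bars and the median of all genes tested as a dotted line. The bars lie at -0.91 for the cytosolic ribosomal proteins, -0.73 for the mitochondrial ones, -1.12 for ribosome biogenesis and 0.09 for growth signalling.

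Growth signalling genes split. Of 19 with at least 1 CPM, 4 were at least 2-fold lower (21.1%, against 21%) and 2 at least 2-fold higher (10.5%, against 25.8%), with a median of 0.09 where all genes tested had 0.04. Myc, the transcription factor that drives ribosomal protein and biogenesis genes, ran from 0 through 81.6 to 1277 CPM in BMCP and from 12.1 through 446 to 2262 CPM in GMP, with summed levels of 250 and 709 CPM and a log2 ratio of -1.50. Eif4ebp1, the cap-binding inhibitor that mTOR switches off, was at 26.6 and 126 CPM (-2.20). Rptor, the defining subunit of mTOR complex 1, was at 76.6 and 26.9 CPM (1.47), and Maf1, a repressor of RNA polymerase III, at 373 and 194 CPM (0.94). In single cells the medians of Rptor were 3.26 and 3.47 CPM, so the summed difference was not seen in the median.

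Mitochondrial ribosomal protein genes, which serve the separate ribosome of mitochondria, were mostly lower in BMCP too. Of 75 genes 71 were lower in BMCP, 24 at least 2-fold lower (32%, against 21%) and 1 at least 2-fold higher (1.33%, against 25.8%), with a median of -0.73. Mrpl16 was at 22.4 and 112 CPM (-2.27) and Mrpl46 at 18.6 and 80.9 CPM (-2.06), whereas Mrps2 was at 119 and 98.0 CPM (0.28) and Mrpl49 at 105 and 43.4 CPM (1.26). Per spike-in read the medians of these lists were -1.97 for biogenesis, -1.43 for initiation, -1.50 for elongation, -0.76 for growth signalling and -1.58 for the mitochondrial ribosome, set beside -1.76 for the cytosolic ribosomal proteins. Whether the lists differ from each other was not tested.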

How the data were processed

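Single cells were processed with the Smart-seq2 type protocol that the labels describe: oligo-dT priming, 23 PCR cycles, spike-in RNA in each reaction and single-end reads of 50 bases, with no molecular identifiers and no strand information. The deposited values are raw read counts per gene and cell made by the authors. GSNAP and HTSeq 0.5.3p3 were used with the genome build mm10, per the submitters' processing notes. The release of the gene annotation: not given in the sources used here. In every cell the deposited row for non-unique alignments holds 0 reads, so how reads with several matches were handled cannot be told. The summary rows (reads outside genes, ambiguous, unaligned) entered no total. They held 17.6%, 3.77% and 30.4% of reads in BMCP and 11.1%, 6.03% and 27.5% in GMP.

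Symbols, gene types and mRNAs were taken from GENCODE vM21 (GRCm38), which matched 45229 of 46078 rows. Promoter sequences are RefSeq's on GRCm38.p6, and none is printed for genes without an entry. Cells were kept with at least 50000 nuclear-encoded counts, 1000 genes, at most 10% mitochondrial counts and a spike-in share of at most 50%. This left out 11 of 141. The spike-in share is that of gene and spike-in counts, without the summary rows. Counts were summed per population, scaled to CPM of nuclear-encoded counts or to 100000 spike-in reads, and compared as log2 with a pseudocount of 1 over genes with at least 1 CPM in either population. Poisson and Clopper-Pearson limits are exact, at 95%. Detection was counted at 2 of 200000 reads in 86 BMCP and 40 GMP. No p-value was computed, since each population is 1 sample. The steps were tested on simulated counts.

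The members and lists were chosen with earlier results of these data known. Members named with values were the 8 largest and 8 smallest ratios among those with at least 20 CPM and no cell with 50% of reads in the higher population, the 5 highest and 5 lowest per kilobase in each population, and members whose direction differed between sums and means of cells. A few genes that these rules name are not reported here. In the translation lists the 2 largest and 2 smallest ratios at 20 CPM or more were named, and every gene outside the symbol rule with 1 CPM. The tools were Python 3.11.15 with pandas 2.3.3, numpy 2.4.6, matplotlib 3.10.9 and scipy 1.17.1. The alternatives varied how cells were weighted, the scaling, pseudocount, filters, depth, blocks, cell classes and the rows counted, and left out each cell in turn.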

Additional observations from a re-analysis of the deposited data

How the results depend on the processing

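The lower level of the ribosomal protein genes in BMCP kept its direction under every alternative run, on both scales. By CPM the median log2 ratio was -1.31 from the median of the cells, and it stayed between -0.95 and -0.84 over the 130 settings that left out 1 cell, the latter without GMP cell 6. The number at least 2-fold lower was 53 from the median of the cells and 17 with a pseudocount of 10, against 32, and 26 to 33 with 1 cell left out. The number at least 2-fold higher was 0 from the median of the cells, with a pseudocount of 10, with BMCP 1 to 47 alone and with pseudogene rows added, and 0 to 1 with 1 cell left out. Rps27, the gene concerned, reversed to -1.35 from the median of the cells, which was 0 CPM in BMCP. Values from the median of the cells say little for members read in few cells. Per spike-in read the median was -2.19 from the median of the cells, -1.47 with a pseudocount of 10, -2.01 without GMP at 100 CPM or more of Gata2, and -1.84 to -1.70 with 1 cell left out. The number lower was 71 to 73 and the number higher 0 to 0 with 1 cell left out, and 1 was higher without cells at 50 CPM or more of Mki67.

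The ribosomal share of BMCP was 1.28% as the mean and 1.25% as the median of cells, 1.34% of totals without these genes, 1.26% with mitochondrial genes in the total, 1.31% with all cells or a stricter cell filter, 1.29% in thinned cells, 1.30% and 1.33% in the 2 blocks, 1.32% without cells at 50 CPM of Mki67, and 1.30% to 1.33% with 1 cell left out. The share of GMP was 2.21%, 2.15%, 2.26%, 2.08% and 2.22% in the same order up to all cells, 2.20% thinned, 2.28% without Gata2-high GMP, 2.18% without cells at 50 CPM of Mki67, and 2.16% to 2.24% with 1 cell left out. The causes of these shifts were not tested. Among the 28 members named by the rule, the direction changed under any such alternative for Rpl17, Rps9, Rpl24, Rpl21 and Rps27, and leaving out 1 cell changed it for Rps9 and Rpl24. Adding pseudogene rows and parting members by unique stretches were chosen after seeing the data. No paired analysis was possible because cell numbers do not pair BMCP with GMP and no label ties a cell to a mouse. With 1 sample per population, the spread between mice is unknown, fewer RNA molecules per cell and lower capture cannot be told apart, and a member at a few CPM rests on few cells.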
